A study of Arabidopsis thaliana with 12 samples.

Results

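Of the 27655 genes in the deposited expression table, 160 had no read in any of 6 wild-type libraries of Arabidopsis thaliana and at least 1 read in 3 or more of 6 libraries of the mutant fve-4. These 160 genes were chosen by exactly that pattern, so their difference between the genotypes is described here and was not tested. Messenger RNA was sequenced from whole seedlings of wild type Columbia (Col) and of fve-4, with 3 libraries in each of 4 groups. All plants were grown in short days (8 h of light, 16 h of dark) at 21 °C until day 7. At ZT1, 1 h after lights-on, the groups Col_27C and fve-4_27C were moved to 27 °C, while Col_21C and fve-4_21C stayed at 21 °C, and every group was harvested at ZT13. The labels name the mutant by its allele alone, and they do not say whether replicates came from separate cultures, so p-values measure the spread between these libraries.

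FVE, also called MSI4, is a WD40-repeat protein that binds histones and works in complexes that deacetylate or methylate them. It is known for repressing the flowering repressor gene FLC, and so for promoting flowering, and it has been linked to silencing of some transposons and repeats. A gene at 0 reads in a seedling may be shut off in all cells, or may be active in cells too few to be sampled. In bulk tissue, fewer cells of a type and less RNA per cell cannot be told apart.

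The values were TPM, transcripts per 1000000, and the reads behind each value could be recovered as whole numbers. Col libraries held 11465313 to 14566380 reads and fve-4 libraries 12516426 to 14103324, and the reads summed to 80760435 in Col and 81756607 in fve-4. At 0 of those Col reads, a level of up to 0.0371 reads per 1000000 (3 reads over the 6 libraries) remains possible, which covers counting error only. More genes were detected per library in fve-4 (21885 to 22196) than in Col (21276 to 21630), and the part of this in the results below was not tested. FVE had 757 to 1266 reads per library in Col and 110 to 168 in fve-4, so every library matched its genotype label. The leaf and photosynthesis markers summed to 33882 to 45687 TPM over all 12 libraries, and root markers were read in all of them, as in whole seedlings. The root sums were 260 to 310 TPM in Col_21C, 81.7 to 130 in Col_27C, 174 to 217 in fve-4_21C and 182 to 255 in fve-4_27C. Among them IRT1, an iron transporter gene, was at 146 to 180 TPM in Col_21C and 2.33 to 19.7 in Col_27C. Whether the lower root sums of Col_27C bear on the genes silent in Col was not tested.

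The number of silent genes was unequal between the genotypes in the direction of more detection in fve-4. Of 4680 genes without a read in Col, 498 had reads in 1 fve-4 library, 188 in 2, 86 in 3, 38 in 4, 25 in 5 and 11 in all 6. With the genotypes exchanged, 4163 genes had no read in fve-4, and of these 255 were detected in 1 Col library, 49 in 2, 22 in 3, 2 in 4, 1 in 5 and 0 in all 6. The mirrored rule thus gave 25 genes beside the 160, and 3834 genes had no read in any of the 12 libraries. Among genes with at least 10 reads in the genotype that expressed them, the counts were 36 and 2, and with at least 20 reads they were 12 and 0. Genes with 1 read in all of Col showed the same inequality: 131 of 550 were above 0 in at least 3 fve-4 libraries, against 38 of 606 in the mirrored comparison.

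**Figure D1:**
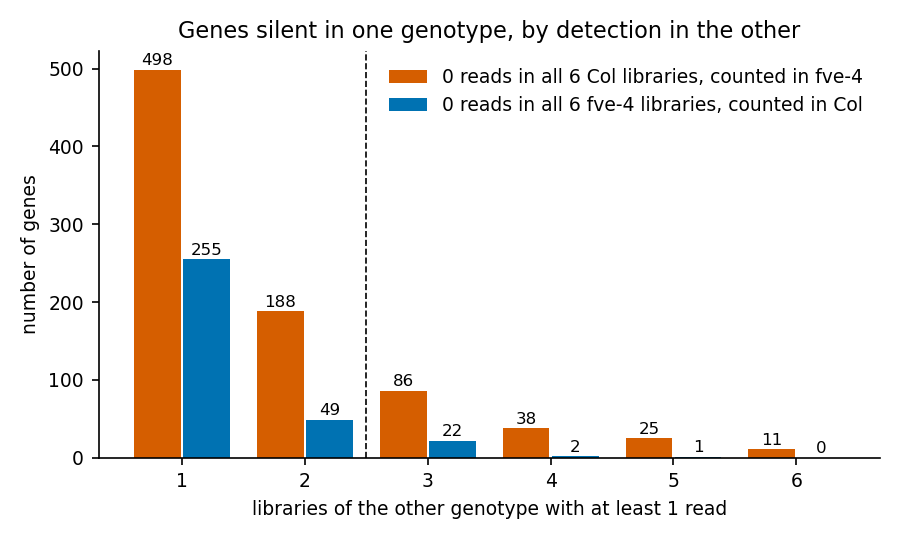
Number of genes (vertical axis) by how many libraries of one genotype had at least 1 read (horizontal axis), for genes without a read in the other genotype. Genes right of the dashed line, at 3 or more libraries, are the 160 in fve-4 (orange) and the 25 in Col (blue); 11 genes were in all 6 fve-4 libraries and 0 genes in all 6 Col libraries.

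Most of the 160 genes were at the edge of detection. Their reads over the 6 fve-4 libraries ran from 3 to 97, with a median of 6 and quartiles of 4 and 9, and 24 genes had exactly 3 reads. Mean levels of the genes in the nucleus ran from 0.0101 to 2.48 TPM, the median of all 160 was 0.134 TPM, and 3 nuclear genes reached a mean of 1 TPM. In 58 genes a single library held at least 50 percent of the reads. At the threshold, genes just outside it (2 libraries) had a median of 3 reads, and those just inside it (3 libraries) a median of 4.5. The highest outside were AT3G52830 (an ankyrin repeat protein) at 0.416 TPM, AT4G40011 at 0.396 TPM and AT2G11405 at 0.391 TPM. The highest inside were PDF1.3 at 1.47 TPM, THI2.1 at 0.825 TPM and, by a value of uncertain scale, the mitochondrial ATMG00665.

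The 160 genes were spread over the fve-4 libraries. In replicates 1, 2 and 3 at 21 °C, 100, 101 and 97 of them had reads, and at 27 °C the numbers were 107, 103 and 93. Their reads summed to 196, 217 and 202 at 21 °C and to 365, 215 and 203 at 27 °C. One library thus stood above the rest, fve-4 at 27 °C replicate 1, and 153 of its 365 reads belonged to 5 defence-related genes described next. Without these 5 genes the sums were 193, 215 and 202 at 21 °C and 212, 203 and 176 at 27 °C. The 5 were grouped after their values were seen, and each is highest in that library. Leaving them out lowers it by construction. Over the whole set 139 genes were detected at both temperatures, 9 at 21 °C alone and 12 at 27 °C alone.

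Other libraries stood apart in seed maturation transcripts, which code for storage and late embryogenesis proteins. The 15 genes of that list summed to 95.5 TPM in fve-4 at 21 °C replicate 2 and to 148 TPM in fve-4 at 27 °C replicate 3, against 26.5 to 50.8 TPM in the other 4 fve-4 libraries and 29.1 to 71.3 TPM in Col. Both libraries together held 30.04% of the reads of the 160 genes and 33.5% of all fve-4 reads. With the 3-library rule applied to the other 4 fve-4 libraries, 80 genes remained in the rule, and 148 of the 160 were above 0 in at least 2 of those 4.

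**Figure D2:**
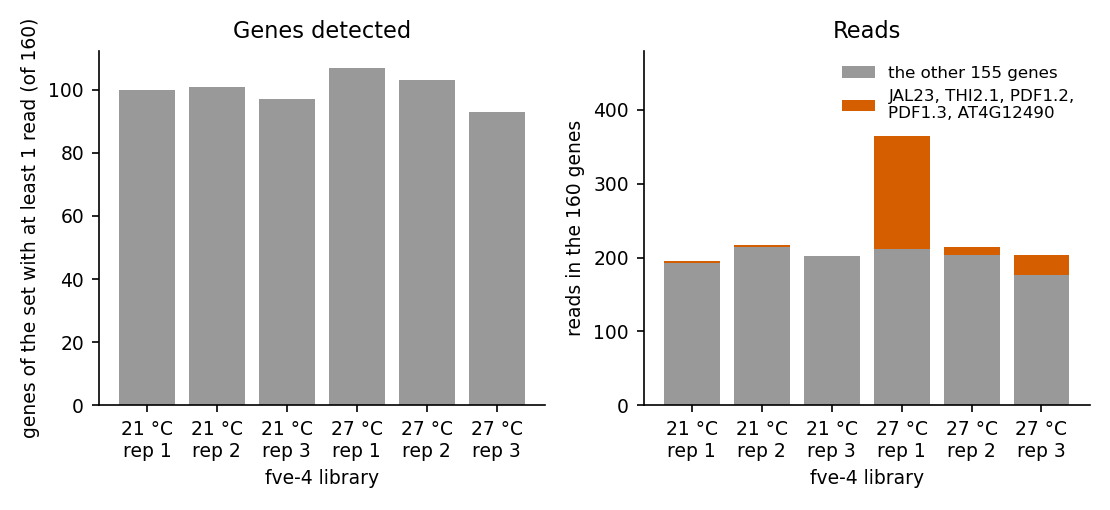
Left, number of the 160 genes with at least 1 read in each fve-4 library (93 to 107); right, reads in the 160 genes per library, with the 5 named defence-related genes in orange and the other genes in grey. The orange part is 153 reads in 27 °C replicate 1 and 0 to 27 reads in the other libraries, and the grey part is between 176 and 215. The 5 genes were grouped after their values were seen, and each is highest in 27 °C replicate 1.

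Genes of inducible defence were among those with the most reads, and their reads came mostly from the warm libraries. JAL23 (AT2G39330), a jacalin-related lectin, had 0, 2 and 0 reads in the 21 °C libraries and 80, 9 and 6 at 27 °C. PDF1.3 (AT2G26010), a plant defensin, had 0 reads in all 3 libraries at 21 °C and 28, 1 and 10 at 27 °C. PDF1.2 (AT5G44420), a defensin widely used as a marker of jasmonate and ethylene signalling, had 0 reads at 21 °C and 8, 1 and 4 at 27 °C. AT4G12490, a lipid-transfer-like protein, had 0 reads at 21 °C and 8, 1 and 5 at 27 °C. In these genes every warm library was above every library at 21 °C, and replicate 1 was the highest. PDF1.3, PDF1.2 and AT4G12490 met the rule through 27 °C alone, so their separation was built in. Of all genes tested, 30.3% also had all 3 warm libraries above all 3 at 21 °C. THI2.1 (AT1G72260), a thionin (a small antimicrobial peptide), had 3, 0 and 0 reads at 21 °C and 29, 0 and 2 at 27 °C, so that its groups overlapped. For THI2.1 a single library gave 29 of the reads, and its span overlaps AT1G72250 on the opposite strand, which was at 12.01 TPM in Col and 10.7 TPM in fve-4.

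Against the limit of 3 reads over the 6 Col libraries, and scaled to equal depth, JAL23 was at least 31.9-fold higher in fve-4, PDF1.3 at least 12.8-fold, THI2.1 at least 11.2-fold, AT4G12490 at least 4.61-fold and PDF1.2 at least 4.28-fold. The genes were chosen for 0 reads in Col, so these bounds describe the difference and do not test it. They take the summed fve-4 reads as exact, so counting error in fve-4 and the spread between libraries are left out. These bounds rest largely on fve-4 at 27 °C replicate 1: without it they were 6.76, 4.38, 1.99, 2.39 and 1.99, in the same order. The bounds of 1.99 rest on 5 reads each. Relatives of these genes outside the set did not share 1 pattern over the fve-4 libraries. PDF1.2b had 3 reads in 27 °C replicate 1 alone, and PDF1.2c had 1 read each in 27 °C replicates 1 and 2, again with none in Col. PDF1.1 (LCR67 in RefSeq) had 84 reads in 21 °C replicate 2, 73 in 27 °C replicate 3 and 0 in the other fve-4 libraries, and 5 in Col. Those 2 libraries are the ones with more seed maturation transcripts. PDF1.4 had 129 reads in fve-4 and 84 in Col. THI2.2, another thionin, and AZI1, of the lipid-transfer cluster, fell at 27 °C in fve-4 (adjusted p = 0.0145 and 0.00194 in limma). THI2.2 had 1093 reads in fve-4 and 546 in Col, and AZI1 846 and 588. EARLI1 and AT4G12500, of the same cluster as AZI1, had 346 and 17 reads in fve-4 and 113 and 1 in Col. All of these relatives had more reads in fve-4 than in Col, and this was not tested. Reads of near-identical defensins can be assigned to the wrong copy, so values of single copies are uncertain. Of the defence genes looked up outside the set, all chosen after earlier values were seen, some were highest in 27 °C replicate 1 and others were not. PR1, a marker of salicylic acid signalling, had 0, 0 and 1 reads at 21 °C and 40, 3 and 8 at 27 °C in fve-4, with 2 or 3 reads in each Col library. BGL2 (PR2), a glucanase, had 0, 0 and 2 reads at 21 °C and 88, 5 and 16 at 27 °C, and 3 reads in all of Col. Between the temperatures in fve-4, PR1 was higher at 27 °C in limma (adjusted p = 0.0438), and PR2 did not pass (adjusted p = 0.0506). In limma-voom both passed as higher (adjusted p = 0.0236 and 0.0387). ORA59, a factor that activates PDF1.2, had 6, 12 and 14 reads at 21 °C and 12, 8 and 11 at 27 °C in fve-4. PR4 had 897, 711 and 647 reads at 21 °C and 874, 611 and 701 at 27 °C. The chitinase gene HCHIB and the storage protein gene VSP2 were lower at 27 °C (adjusted p = 0.00192 and 0.00371 in limma). Summed over 6 libraries, ORA59 had 63 reads in fve-4 and 28 in Col, and PR4 4441 and 2020. HCHIB had 1035 and 469, and VSP2 2238 and 858. All defence genes named here thus had more reads in fve-4 than in Col, and this was not tested.

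Further members with a role in defence or stress had few reads. SAG13, a gene expressed in senescence, had 2, 1 and 1 reads at 21 °C and 7, 0 and 6 at 27 °C. WAK3, a wall-associated kinase, had 0, 3 and 1 reads at 21 °C and 3, 0 and 0 at 27 °C. RLM1, a disease resistance protein of the TIR-NBS-LRR class, had 5 reads in all, DIR5, a dirigent-like protein, had 4, and AOX1D, an alternative oxidase of mitochondria, had 7. None of these showed groups that were apart.

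**Figure D3:**
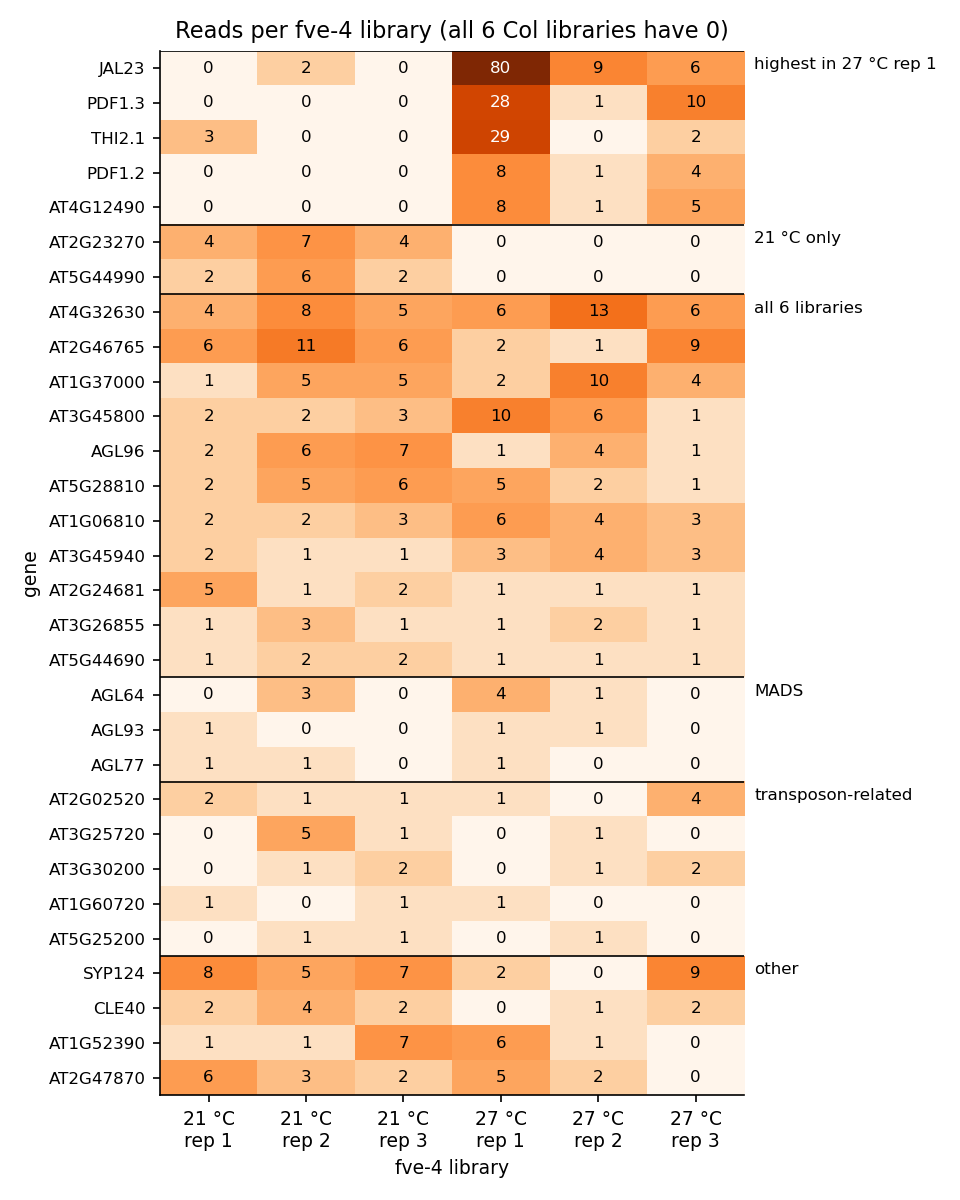
Reads (printed and coloured on a log2(reads + 1) scale) of selected genes of the set, 1 gene a line, in the 6 fve-4 libraries; every Col library has 0. The upper block is highest in 27 °C replicate 1, the next is found at 21 °C alone, and the 11 genes of the third block were read in all 6 libraries.

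The temperature comparison within fve-4 asked whether the 160 genes responded to warmth. The rule treats the 6 fve-4 libraries alike, but it is not independent of temperature for every gene. A gene read at 1 temperature alone met the rule, and the filter of the test, through that temperature alone and had to differ. This held for 21 of the 160, with 9 at 21 °C and 12 at 27 °C. For the other 139, with reads at both temperatures, the comparison was made with limma on log2(TPM + 1), fitted over the 22157 genes above 0 in at least 3 fve-4 libraries. At a Benjamini-Hochberg adjusted p under 0.05, limma called 0 of the 139, 5 had an unadjusted p under 0.05, and limma-voom on recovered reads called 1 (higher). This split of the genes was made after seeing the data, and it takes out the genes that differed most by construction, so a low count is not read as a lack of response. Of the 22070 tested genes with reads at both temperatures, 32.5% were called. The median change of the 139 genes was -0.0061, and that of the 22070 genes 0.06, on the log2(TPM + 1) scale, which understates the change of low genes. Over all 160 genes the same fit gave 3 higher and 1 lower, beside 20.8% and 11.7% of all genes tested (32.5% in either direction), and limma-voom gave 7 and 4. All 4 genes called by limma on TPM were among the 21, so these calls are not read as a response.

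The genes behind these calls are therefore given by their levels. With 0 reads at 21 °C, PDF1.3 averaged 2.94 ± 3.08 TPM in the warm libraries (SD, n = 3), PDF1.2 1.06 ± 0.844 TPM and AT4G12490 0.973 ± 0.723 TPM. In each of them replicate 1 was the highest and replicate 2 the lowest of the warm libraries. JAL23, with reads at both temperatures, averaged 0.0411 ± 0.0712 TPM at 21 °C and 1.92 ± 2.53 TPM in the warm libraries. It did not pass in limma (adjusted p = 0.0963). It was the 1 gene with reads at both temperatures called by limma-voom (adjusted p = 0.0343), and it passed in 5 of 20 alternative settings. THI2.1 did not pass either (adjusted p = 0.322).

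In the other direction, AT2G23270, which codes for an uncharacterized protein, had 4, 7 and 4 reads at 21 °C and 0 in each library at 27 °C, or 1.33 ± 0.44 TPM against 0. AT5G44990, a glutathione S-transferase family protein named after its values were seen, had 2, 6 and 2 reads at 21 °C and 0 at 27 °C. Both are among the 9 genes read at 21 °C alone.

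**Figure D4:**
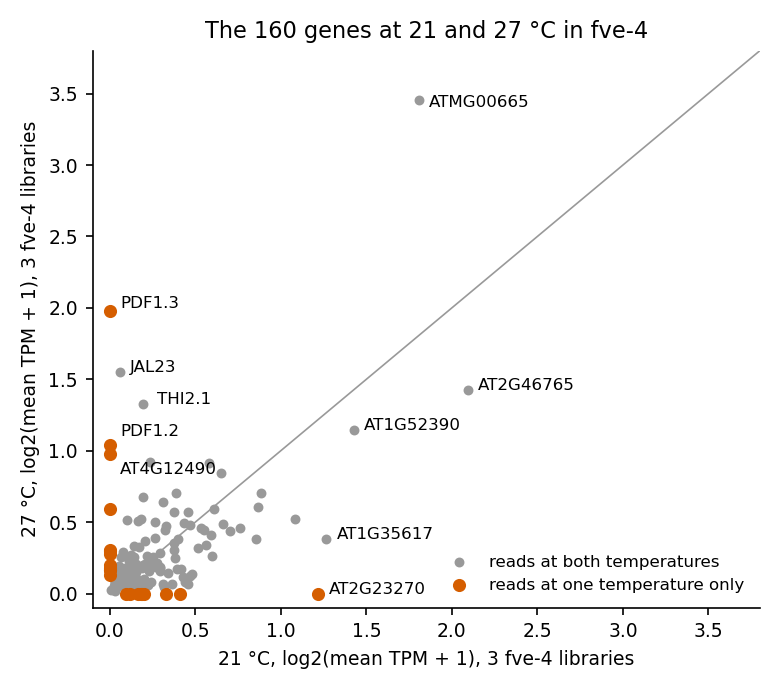
Mean level of each of the 160 genes at 21 °C (horizontal) and 27 °C (vertical) in fve-4, as log2(mean TPM + 1) over 3 libraries each; the line marks equal levels and orange points are the 21 genes read at one temperature only. PDF1.3, PDF1.2 and AT4G12490 lie on the vertical axis with 0 at 21 °C, AT2G23270 lies on the horizontal axis, and most genes crowd near the origin.

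Among the 139 genes with reads at both temperatures, 7 (5.04%) had all 3 warm libraries above all 3 at 21 °C, against 30.2% of the tested genes with reads at both, and 0 had all 3 below, against 16.6%. JAL23, AT3G46340 and ACA7 were among the 7. With the 21 genes counted in, the numbers were 19 (11.9%) and 9 (5.63%) of 160, against 30.3% and 16.6% of all genes tested. Of the genes read at 1 temperature alone, where such separation is built in, CSLA01, a cellulose synthase-like protein, had 2, 6 and 2 reads at 27 °C. The nitrate transporter NRT1.6 had 3, 3 and 2 reads at 27 °C. DXPS1, annotated as a synthase of the plastid isoprenoid pathway, had 4, 2 and 1 reads at 21 °C.

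The 11 genes read in all 6 fve-4 libraries have reads at both temperatures by that choice, and most showed no clear order between the temperatures. They are 6.88% of the 160, while 2.7% of the 23821 genes detected anywhere had all 6 fve-4 libraries above all 6 Col libraries. The choice of genes used that contrast. AT4G32630, an ArfGap/RecO-like zinc finger protein, had 4, 8 and 5 reads at 21 °C and 6, 13 and 6 at 27 °C. AT2G46765, an uncharacterized protein, had 6, 11 and 6 reads at 21 °C and 2, 1 and 9 at 27 °C. In both the temperature groups overlapped, and AT2G46765 had the highest mean level among the 11, 2.48 ± 1.64 TPM (SD, n = 6), with an adjusted p of 0.155 in limma between the temperatures.

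AT1G37000, a beta-galactosidase related protein, had 1, 5 and 5 reads at 21 °C and 2, 10 and 4 at 27 °C. AT1G06810, annotated as an endonuclease or glycosyl hydrolase, had 2, 2 and 3 reads at 21 °C and 6, 4 and 3 at 27 °C. AT5G28810, a protein of the Ulp1 protease family, had 2, 5 and 6 reads at 21 °C and 5, 2 and 1 at 27 °C. Of these, AT1G06810 came closest to an order, with a shared value of 3 reads at the border. AT3G45800 had 2, 2 and 3 reads at 21 °C and 10, 6 and 1 at 27 °C, and AT3G45940, a glycosyl hydrolase, had 2, 1 and 1 reads at 21 °C and 3, 4 and 3 at 27 °C, the 1 gene of the 11 whose groups were apart (adjusted p = 0.407 in limma). The remaining members of the 11 were AGL96, AT2G24681 (an AP2/B3-like factor), AT3G26855 (reverse transcriptase-related) and AT5G44690, with 8 to 21 reads in all.

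Several members are known from flowers, pollen or seeds; they were picked by name after their values were seen, and 0 of the 160 genes were on the floral organ, pollen and sperm, egg cell and endosperm or seed maturation lists. AGL96 (AT5G06500) codes for a MADS-domain protein of the AGAMOUS-like family, a family of transcription factors many of which act in flowers, gametophytes and seeds. It had 2, 6 and 7 reads at 21 °C and 1, 4 and 1 at 27 °C, with a mean of 0.778 ± 0.6 TPM (SD, n = 6). Its relatives AGL64, AGL77 and AGL93 had 8, 3 and 3 reads in all. The table held 80 genes annotated as AGAMOUS-like, of which 38 had no read in Col and 27 none in fve-4. The 4 members are 10.5% of those 38, beside 3.42% for all genes without a read in Col.

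SYP124 (AT1G61290), a syntaxin known from pollen, where it acts in secretion at the growing tube, had 8, 5 and 7 reads at 21 °C and 2, 0 and 9 at 27 °C. It overlaps AT1G61280 on the same strand, which was at 2.09 TPM in Col and 3.21 TPM in fve-4. CLE40 (AT5G12990), a signal peptide that limits stem cells at the root tip, had 2, 4 and 2 reads at 21 °C and 0, 1 and 2 at 27 °C. In both genes the temperature groups overlapped. Other members are known from pollen, microspores or seeds: the calcium pump gene ACA7 had 7 reads, MSP2 (microspore-specific promoter 2) 3, the TFIIB-related factor pBRP2 3, the amino acid permease AAP8 3 and ARF12, an auxin response factor, 4. The pollen and sperm list summed to 3.28 to 5.11 TPM in Col and 2.71 to 4.13 TPM in fve-4, and 5 of its 9 genes had no read in any library. Most of these sums came from GEX1, GEX2 and GCS1, read in every library. Their means were 1.46, 2.03 and 0.404 TPM in Col and 1.47, 1.39 and 0.503 TPM in fve-4. PPME1 of the list had 2 reads in fve-4 and 0 in Col. The sums thus mainly describe GEX1, GEX2 and GCS1.

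Transposon-related genes were 6 of the 160, or 3.75%, beside 0.372% of the table and 1.38% of the genes at 0 in all 12 libraries. These classes were read from the RefSeq product names and chosen after the values were seen, so the shares are a description. AT3G26855, reverse transcriptase-related, had 1, 3 and 1 reads at 21 °C and 1, 2 and 1 at 27 °C. AT2G02520, of the same kind, had 2, 1 and 1 reads at 21 °C and 1, 0 and 4 at 27 °C. AT3G25720 had 5 of its 7 reads in 21 °C replicate 2. AT3G30200, a transposase of the Ptta/En/Spm family, had 6 reads, and AT1G60720 and AT5G25200, a non-LTR retrotransposon, had 3 each. In all 6 the levels were low, and the temperature groups overlapped.

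By other product names, 33 genes were uncharacterized proteins (20.6%, beside 10.8% of the table and 26.4% of the genes at 0 everywhere). F-box proteins, the substrate-binding subunits of ubiquitin ligases, were 9 (5.63%, beside 2.36% and 7.75%). Proteins named as receptor-like, wall-associated, lectin kinase or leucine-rich repeat, or as TIR-NBS-LRR, were 7 (4.38%, beside 2.14% and 1.25%), among them WAK3, RLP28, AT3G46340 and RLM1. Defensins were 4 (2.5%, beside 0.409% and 2.09%). In its share of uncharacterized and F-box genes the set thus lay between the table and the genes without any read. Its shares of receptor and transposon-related genes were above both. The share of defensins, from 4 genes, was above that of the table and near that of the genes without any read. Transporters of ions and metabolites included ZIP12 (zinc) with 6 reads, CAX6 (a vacuolar cation exchanger) with 7 and COPT3 (copper) with 3, all of the last at 27 °C.

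**Figure D5:**
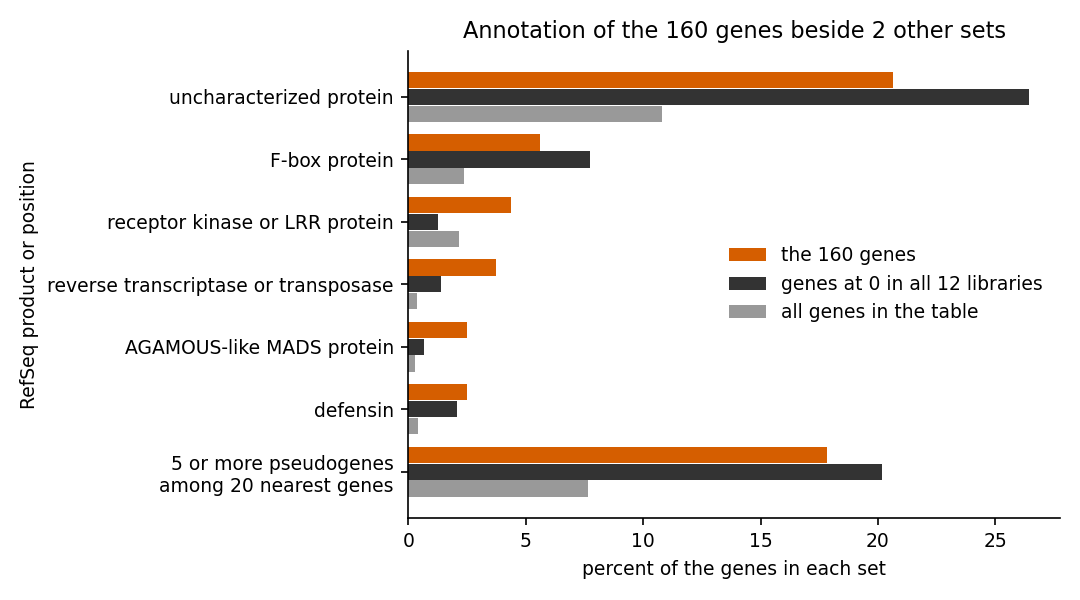
Share of genes (percent, horizontal axis) with each RefSeq product class, or with 5 or more pseudogenes among their 20 nearest genes, in the 160 genes (orange), the 3834 genes at 0 in all 12 libraries (black) and the whole table (grey). Transposon-related genes make up 3.75%, 1.38% and 0.372%, and genes near pseudogenes 17.8%, 20.2% and 7.66%.

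The genes lay on all 5 nuclear chromosomes in shares close to those of the table, from 13.8% on chromosome 4, which holds 15.1% of all genes, to 25.6% on chromosome 1, which holds 25.9%; 3 were mitochondrial. Pseudogenes were frequent neighbours: 28 of the 157 genes with a reference entry (17.8%) had 5 or more among their 20 nearest genes, beside 7.66% of all genes, 20.2% of those at 0 everywhere and 8.33% of the mirrored set. The genes were short, with a median span of 1234 bases against 2078 for the table and 903 for the genes at 0 everywhere. A pair was adjacent, AT1G35614 and AT1G35617, both uncharacterized. AT1G35614 had 1, 2 and 3 reads at 21 °C and 0, 1 and 0 at 27 °C, and AT1G35617 had 3, 1 and 5 at 21 °C and 0, 2 and 0 at 27 °C. Both were thus low at 27 °C, and in limma the adjusted p was 0.115 and 0.09.

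Of the 160 genes, 34 overlap another gene of the table. With non-coding genes and pseudogenes counted as well, 38 of 157 (24.2%) overlap another gene. The share was 28.3% for all genes and 24.2% for the genes at 0 everywhere, so overlap did not set the 160 apart. The strand setting of the counting is not given in the sources used here, so reads from both genes cannot be told apart. Some partners were strongly expressed: ANK, with 9 reads, all at 27 °C, overlaps RPL24 at 514 TPM in Col and 522 TPM in fve-4, and NRT1.6 overlaps AT1G27090 at 156 and 149 TPM. GIP2, with 1 read in each warm library, overlaps SARD1, a regulator of salicylic acid synthesis, at 0.299 TPM in Col and 1.70 TPM in fve-4. Of the defence genes above, AT4G12490 also overlaps AT4G12495, which had no read.

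Apart from ATMG00665, the remaining genes of highest level had few reads over short spans. ATMG00665, a mitochondrial gene without an entry in the reference, had the highest mean, 6.23 ± 7.34 TPM (SD, n = 6), as deposited. Its reads were found with the shortest length that gave whole numbers, 22 bases, which is too short for a gene. At that length 21 °C replicate 2 had 1 read, and 27 °C replicates 1 and 3 had 2 each. A longer span would give more reads, so these are the lowest possible numbers. The span behind its TPM is unknown, so its TPM and its rank are not comparable with those of the other genes. AT1G52390 had 1, 1 and 7 reads at 21 °C and 6, 1 and 0 at 27 °C (1.45 ± 1.68 TPM). AT1G47813 had 4 reads in 21 °C replicate 2 and 1 in each warm library (0.737 ± 0.931 TPM), and AT2G47870, a thioredoxin superfamily protein, had 6, 3 and 2 reads at 21 °C and 5, 2 and 0 at 27 °C. The temperature groups overlapped in all of these.

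None of the 92 genes on 10 lists of cell type markers, silenced loci and FVE partners was among the 160. The 5 genes listed as silenced by DNA methylation were read in both genotypes, and they summed to 14.4 to 21.8 TPM in Col and 44.6 to 66.7 TPM in fve-4. QQS, a species-specific gene of starch metabolism, carried this difference, with means of 4.04 TPM in Col and 42.6 TPM in fve-4, and without it the other 4 genes overlapped (11.6 to 16.6 and 8.73 to 16.4 TPM). Most of the sum of those 4 came from ROS1, a DNA demethylase gene that was the most abundant of the 5 in Col and not silent there. ROS1 averaged 13.8 TPM in Col and 11.5 TPM in fve-4, so the overlap mainly describes this gene. FWA, an imprinted gene known for its methylated promoter, had 28 reads in Col and 129 in fve-4, or means of 0.207 and 0.868 TPM. The 16 Polycomb targets summed to 25.5 to 39.3 TPM in Col and 47.1 to 57.6 TPM in fve-4, and 2 of them had no read in Col. FLC carried the separation (2.88 TPM in Col and 26.02 TPM in fve-4), and without it the sums overlapped, at 23.0 to 36.7 and 23.5 to 29.2 TPM. Floral organ genes summed to 1.52 to 3.44 TPM in Col and 2.2 to 5.86 TPM in fve-4, and egg cell and endosperm genes to 1.55 to 5.03 and 2.74 to 6.29 TPM, with overlap in both lists. Single genes of a list differed in both directions. PI, a floral organ gene, had 62 reads in Col and 228 in fve-4, while SEP3 had 58 and 47, SHP1 47 and 32, and FUL 22 and 10. Of the seed maturation list, FUS3 had 22 and 145 reads and ABI3 487 and 236. The FLC clade (6 genes, FLC included) was at 53.1 to 72.8 TPM in Col and 87.5 to 100.1 TPM in fve-4, and the partners of FVE, without FVE itself, at 329 to 367 and 346 to 364 TPM.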

How the data were processed

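The authors deposited a single table of TPM values for the 12 libraries. Its headers read as gene counts, yet every column adds up to 1000000 with decimals. The submitters' processing notes name fastp 0.20.1, HISAT2 2.1.10, DESeq2 1.26.0 and the build TAIR10; read counter and strand setting are not given in the sources used here. Reads were recovered by multiplying TPM with the gene span. All 23821 genes above 0 gave whole reads within 0.01, using the span for 99.98% of the genes that had one. The others were given the shortest length that fitted their values, so their reads are the lowest possible numbers. Symbols, products, spans and neighbours came from RefSeq TAIR10.1 (99.24% of identifiers); since the builds differ in name, no coordinates or sequences are given.

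The 6 fve-4 libraries were fitted, without covariates, with limma 3.58.1 in R 4.3.3 using log2(TPM + 1) and a mean-dependent prior variance, over the 22157 genes above 0 in at least 3 of them. Tests were two-sided with Benjamini-Hochberg adjustment at 0.05. Recovery and fit were tested on simulated data. Alternatives changed the pseudocount, filter, scaling, prior, libraries and thresholds; voom on recovered reads was 1 of them.

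The 160 genes and the lists were chosen with earlier results of these data known. Genes were named by rule: the 15 highest in mean TPM, those read in all 6 libraries that have a symbol, those called, those on a list, FVE, and 3 on either side of the threshold. All other genes were named after their values were seen. Python 3.11.15, pandas 2.3.3, numpy 2.4.6 and matplotlib 3.10.9 were used.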

Additional observations from a re-analysis of the deposited data

How the results depend on the processing

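The number of genes silent in Col and detected in fve-4 followed the rule closely. It was 348, 74, 36 and 11 with at least 2, 4, 5 and 6 fve-4 libraries above 0, in place of 160, and the mirrored number was 74, 3, 1 and 0, in place of 25. Asking for 2 reads in a library gave 38 and 4, and allowing 1 read in the other genotype (chosen after seeing the data) gave 291 and 63. Without fve-4_21C replicate 2 and fve-4_27C replicate 3 the numbers were 80 and 44, and without fve-4_27C replicate 1 as well 31 and 85. Leaving out fve-4 libraries makes silence in fve-4 easier and detection harder by construction. Leaving out 1 library gave 110 to 202 and 10 to 39.

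The higher and lower calls, 3 and 1, became 7 and 3 with log2(TPM + 0.1), 9 and 8 with all 12 libraries in the fit, 5 and 4 with one prior variance, and 7 and 4 with limma-voom. With all 12 libraries, the Col values of 0 enter the estimate of spread. With TPM of at least 1 in 3 libraries 0 were called higher, but only 3 of the 160 genes were tested. Leaving out 1 library gave 0 to 5 higher and 0 to 3 lower, with 1 residual degree of freedom fewer; with the genes refiltered, 110 to 122 of the 160 were tested. Of the 7196 genes called in all, 63.9% were higher, against 48.9% of 6774 after median-ratio rescaling, where 3 and 1 of the 160 were called as before. The replicate block gave 3 higher and 1 lower among the 160 and 3784 and 2180 among all genes; libraries of the same number did not deviate together (correlations -0.119, -0.105 and -0.0813). The median gene of the set had 6 reads over 6 libraries; whether calls would differ at higher read numbers was not tested. All 4 calls were in genes read at 1 temperature alone, which met the rule through that temperature.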
